A study of Homo sapiens with 6 samples.

Results

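The genes described here are 10 ligands and receptors of the vascular endothelial growth factor (VEGF) and platelet-derived growth factor (PDGF) families. They were taken by symbol from the deposited tables, where all 10 were found among 24432 symbols: the VEGF ligands VEGFA, VEGFB and VEGFC, the PDGF ligands PDGFA, PDGFB and PDGFC, the VEGF receptors FLT1 and KDR, and the PDGF receptors PDGFRA and PDGFRB. The study profiled cells under the label PLC/PRF/5, which names an established line from a human hepatocellular carcinoma, by RNA-seq in 2 states with 3 libraries each. The sensitive group is labelled wild type with a control treatment, and the resistant group is labelled lenvatinib resistant with lenvatinib treatment. Lenvatinib is an oral inhibitor of VEGF, FGF and PDGF receptor kinases, KIT and RET. Per the labels, all cells were kept in DMEM with 10% fetal bovine serum, and the resistant cells were selected from 20 µmol/L upward by 0.5 mmol/L per passage to 40 mmol/L, units that disagree. The drug label is on the resistant libraries alone, so drug exposure and resistance cannot be told apart. Nothing says that replicates were separate cultures, so p-values measure the spread between these libraries, which may be technical.

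The VEGF ligands are secreted dimers that signal through the tyrosine kinases FLT1 (VEGFR1), KDR (VEGFR2) and FLT4 (VEGFR3), which are best known from endothelial cells. VEGFA binds FLT1 and KDR, VEGFB binds FLT1, and VEGFC binds FLT4 and KDR. The PDGF ligands are built on the same cystine-knot fold and act on PDGFRA and PDGFRB, receptors typical of fibroblasts, pericytes and hepatic stellate cells. In liver tumours, cancer cells are commonly a source of these ligands, and stromal and endothelial cells carry most of the receptors.

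Promoters of 3 ligands and 1 receptor whose values differed between the groups are shown, as the DNA around a start site listed in RefSeq. Which start sites these cells used was not measured. RefSeq entries on GRCh38.p14, of 250 bases before to 50 bases after a start site, were found for 7 of the 10 genes. Capitals mark the GC box GGGCGG on either strand (CCGCCC when read from the other), the core of sites for SP1-type factors. Each sequence runs 5′ to 3′ on the gene's strand. PDGFA has 4 windows in the table, and the one with the highest G and C share is printed.
VEGFB, chr11:64234334-64234633, plus strand: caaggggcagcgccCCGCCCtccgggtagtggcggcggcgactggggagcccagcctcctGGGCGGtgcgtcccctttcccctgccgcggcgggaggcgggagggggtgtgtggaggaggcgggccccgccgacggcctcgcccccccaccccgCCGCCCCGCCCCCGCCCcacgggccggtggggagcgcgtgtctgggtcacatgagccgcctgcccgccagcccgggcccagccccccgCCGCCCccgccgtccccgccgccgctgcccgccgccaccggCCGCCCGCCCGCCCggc
VEGFC, chr4:176792873-176793172, minus strand: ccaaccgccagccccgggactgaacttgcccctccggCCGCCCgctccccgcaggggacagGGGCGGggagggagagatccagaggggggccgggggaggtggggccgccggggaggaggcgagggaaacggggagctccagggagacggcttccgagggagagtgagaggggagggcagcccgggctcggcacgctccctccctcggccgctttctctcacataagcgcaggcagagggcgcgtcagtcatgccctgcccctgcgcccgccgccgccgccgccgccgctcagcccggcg
PDGFA, chr7:519797-520096, minus strand: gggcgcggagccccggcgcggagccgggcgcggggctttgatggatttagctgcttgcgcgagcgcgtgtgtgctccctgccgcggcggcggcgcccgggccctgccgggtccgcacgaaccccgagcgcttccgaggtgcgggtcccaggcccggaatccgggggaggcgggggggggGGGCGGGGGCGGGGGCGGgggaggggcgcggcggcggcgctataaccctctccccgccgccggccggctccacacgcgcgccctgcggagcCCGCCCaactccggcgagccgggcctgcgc
PDGFRB, chr5:150155796-150156095, minus strand: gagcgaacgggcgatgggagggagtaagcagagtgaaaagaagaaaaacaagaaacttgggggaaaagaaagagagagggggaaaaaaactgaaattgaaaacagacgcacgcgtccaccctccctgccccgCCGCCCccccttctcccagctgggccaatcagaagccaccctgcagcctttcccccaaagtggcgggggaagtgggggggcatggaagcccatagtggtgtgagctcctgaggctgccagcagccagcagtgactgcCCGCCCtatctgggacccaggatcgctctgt
The G and C share was 84.7% for VEGFB, 81.7% for this PDGFA window, 76.3% for VEGFC and 59.3% for PDGFRB, against a median of 58.7% over 35116 windows. The PDGFA window was picked for that share, and the other PDGFA windows had 70.3%, 71.7% and 72.7%. GC boxes numbered 9 for VEGFB, 4 for PDGFA, 2 for VEGFC and 2 for PDGFRB, with 1, 4 and 5 in the other PDGFA windows in the same order, while 45.0% of all windows held at least 1. The EGR1-type motif GCGGGGGCG, which can share letters with a GC box, occurred at 2 places in VEGFB, at 2 in this PDGFA window and at 0, 2 and 0 in the others, against at least 1 in 5.1% of all windows, counted on both strands. The AP-1 motif TGAGTCA, on either strand, was in none of the 11 windows of these genes and in 4.9% of all windows. No window was found for VEGFA, PDGFB or PDGFC. Any part of these motifs in the differences between the groups was not tested.

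The labelled cell type was checked against marker genes before any result was read. Over 10 hepatocyte markers, summed FPKM (fragments scaled to transcript length and library size) ran from 2930 to 3038 in the sensitive libraries and from 11.1 to 27.6 in the resistant ones, with the highest resistant sum in replicate 2. SERPINA1, alpha-1-antitrypsin, made up most of the sensitive sum, at 2089, 2265 and 2401 FPKM, against 10.0, 20.9 and 8.66 FPKM in resistant libraries. APOB was at 560, 391 and 163 against 1.09, 3.96 and 1.51 FPKM. In the sensitive libraries ALB was only at 4.02, 3.61 and 2.01 FPKM and TTR at no more than 0.850 FPKM. Both were lower still in the resistant libraries. The resistant libraries thus lacked most of the hepatocyte transcripts that their label implies, and the part of this loss in the results below was not tested. Across tested genes the correlation of a sensitive with a resistant library was 0.680 to 0.706, and that between resistant libraries was 0.994 to 0.996. Whether the libraries labelled resistant came from the labelled line cannot be told from these values. So "rose" and "fell" below compare the libraries labelled resistant with those labelled sensitive, and do not describe a course within 1 line. Sensitive replicate 3 stood apart from the other sensitive libraries, with a correlation across genes of 0.9515 and 0.9643 against 0.9947 between replicates 1 and 2. The main results that lean on it are therefore given with and without it, where the filter allowed a fit. The spacing of low values put the depth of the 6 libraries within 3.46% of each other.

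Of the 6 ligand genes 5 rose in resistant cells and 1 fell, and no receptor gene was higher. All 6 ligands passed the filter of at least 1 FPKM in at least 3 libraries and all 6 passed the test, in libraries where 67.7% of the 11694 genes tested passed it, 35.2% higher and 32.5% lower. The resistant values did not overlap the sensitive ones for any of the 6 ligands, as was the case for 74.4% of tested genes. With 6 genes, this count is not read as a result about the family. In RNA from bulk cultures, fewer cells that express a gene and less of its RNA per cell cannot be told apart. No median over the 6 is given, since VEGFC and PDGFA passed the filter through the resistant libraries, where they were high. A gene was called where limma gave it a p under 0.05 after Benjamini-Hochberg adjustment over every tested gene. Each fold change was computed on log2(FPKM + 1), a scale that understates changes of low genes.

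**Figure D1:**
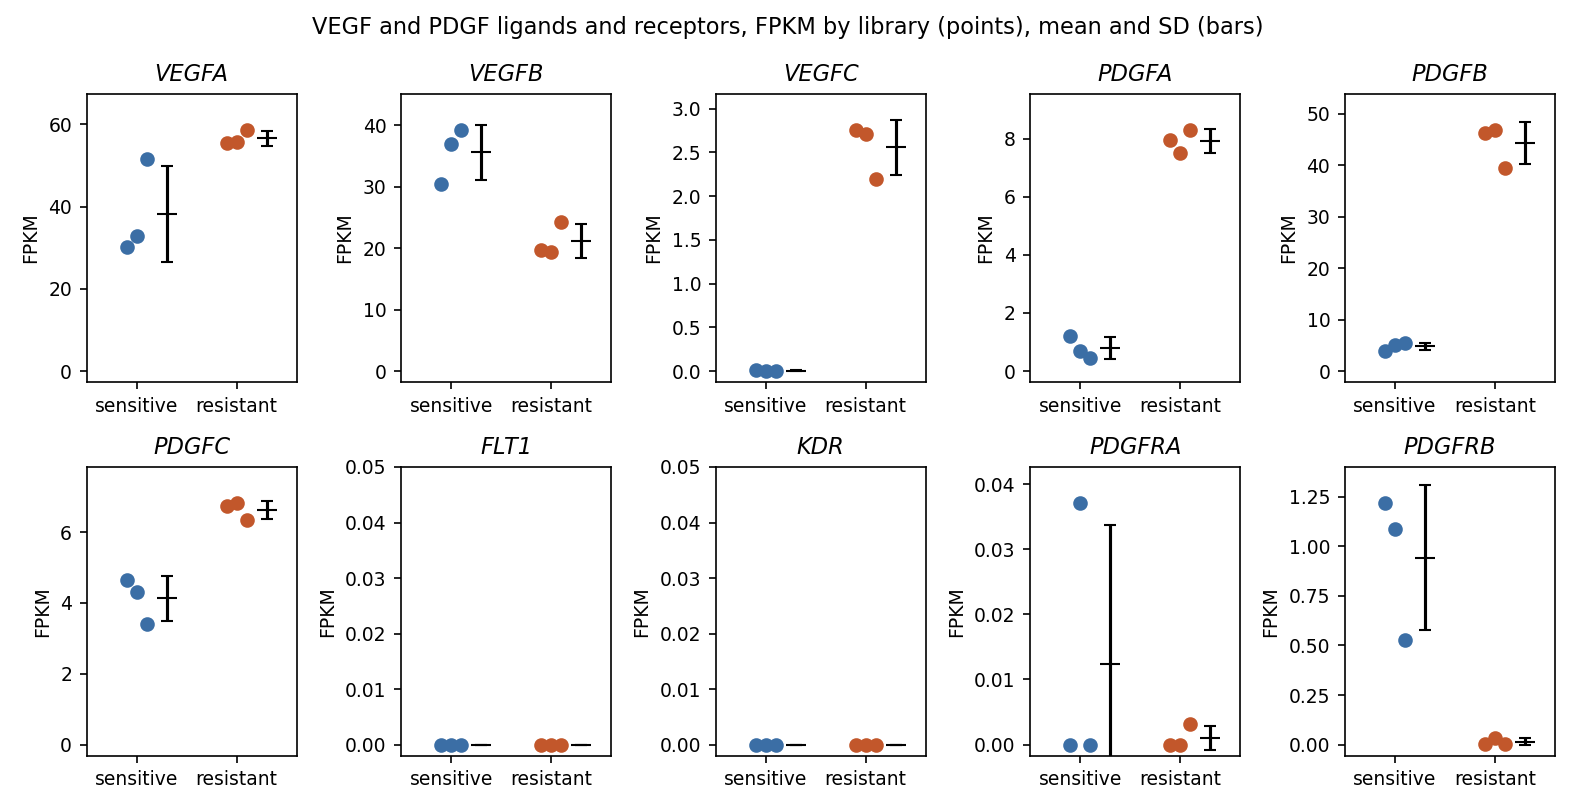
FPKM of the 10 genes in each of 3 sensitive (blue) and 3 resistant (orange) libraries, with the mean and SD over 3 libraries in black and a separate y axis for each gene. PDGFB goes from about 4 to 5 FPKM to about 40 to 47 FPKM, and FLT1 and KDR are listed at 0 throughout.

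PDGFB had the largest change of the tested members on log2(FPKM + 1), an order that rests on the pseudocount. With a pseudocount of 0.1 the log2 fold changes were 3.19 for PDGFB, 3.26 for PDGFA and 4.67 for VEGFC. PDGFB encodes the B chain, whose homodimer binds both PDGF receptors. Sensitive libraries held 3.97, 5.00 and 5.42 FPKM, and resistant libraries held 46.3, 46.9 and 39.5 FPKM. Every resistant library lay far above every sensitive one, with means of 4.80 ± 0.748 and 44.2 ± 4.09 FPKM (SD, n = 3 libraries per group throughout), a 9.22-fold difference. The log2 fold change was 2.97 (adjusted p = 3.52e-06 by limma, SE 0.140), larger in size than that of 94.7% of tested genes.

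PDGFA, the A chain, whose homodimer acts mainly through PDGFRA, rose 10.1-fold in its mean level, from a lower start than PDGFB. Its sensitive values were 1.21, 0.699 and 0.461 FPKM and its resistant values 7.96, 7.50 and 8.31 FPKM. The resistant libraries were close to each other, whereas the sensitive ones spread from the highest in replicate 1 to the lowest in replicate 3. The means were 0.788 ± 0.380 and 7.92 ± 0.403 FPKM, with a log2 fold change of 2.34 (adjusted p = 2.45e-05 by limma, SE 0.168). PDGFA reached 1 FPKM in only 1 sensitive library, so the resistant libraries by themselves carried it past the filter.

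PDGFC moved least among the PDGF ligands. It encodes a latent ligand with a CUB domain that proteases must remove before it can bind PDGFRA. Its levels were 4.65, 4.31 and 3.42 FPKM in sensitive and 6.72, 6.82 and 6.35 FPKM in resistant libraries. The groups did not overlap, but the step between them was small, from 4.13 ± 0.637 to 6.63 ± 0.248 FPKM. The log2 fold change was 0.58 (adjusted p = 0.00724 by limma, SE 0.134).

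The make-up of the PDGF ligands changed with these unequal steps. In sensitive libraries PDGFB held 40.4%, 49.9% and 58.3% of the summed FPKM of PDGFA, PDGFB and PDGFC, and in resistant libraries 75.9%, 76.6% and 73.0%. PDGFC held 47.3%, 43.1% and 36.7% in sensitive libraries and 11.0%, 11.1% and 11.7% in resistant ones. These shares do not depend on how the libraries were scaled. The ratio of PDGFB to PDGFC was 0.853, 1.16 and 1.59 in sensitive libraries, so PDGFB was the lower of the pair in replicate 1, and 6.88, 6.88 and 6.22 in resistant libraries. By contrast the ratio of PDGFB to PDGFA overlapped between groups, at 7.41 ± 4.25 and 5.61 ± 0.767 (exact two-sided permutation test, p = 0.7). Summed over the 3 ligands, PDGF levels went from 9.71 ± 0.367 to 58.8 ± 3.99 FPKM.

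**Figure D2:**
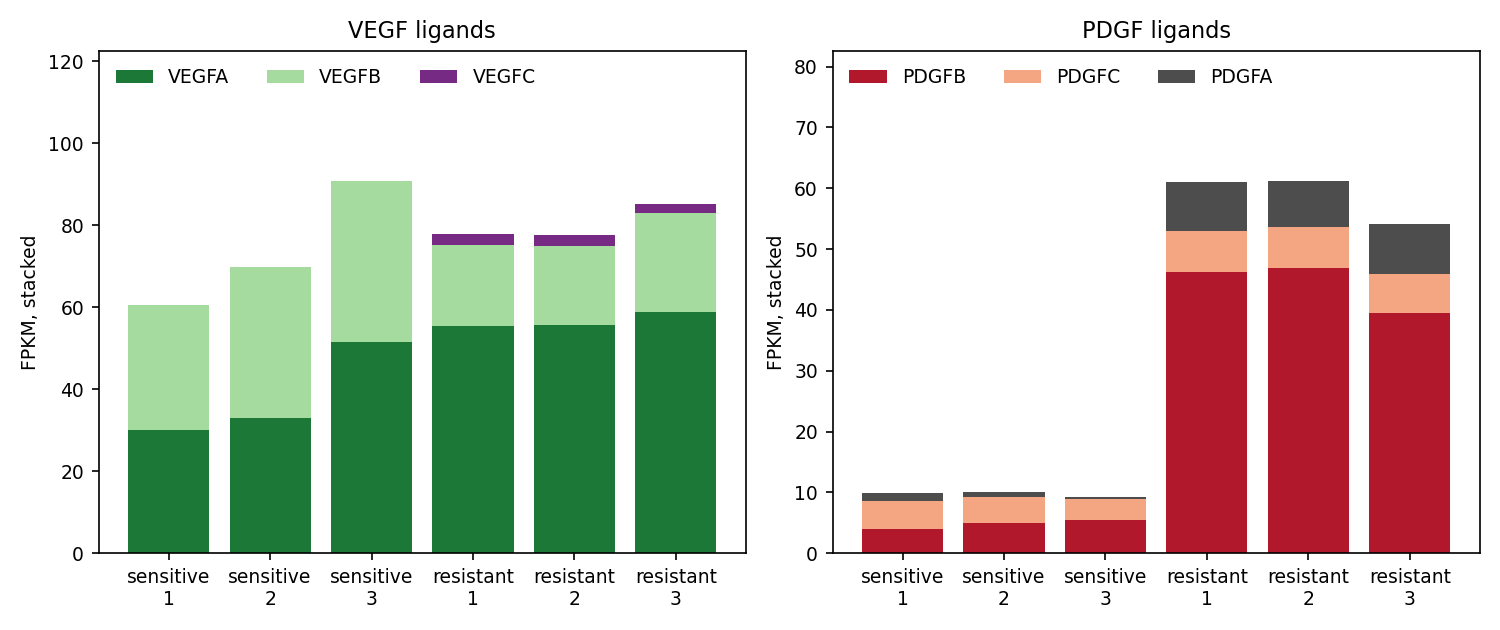
Stacked FPKM of the VEGF ligands (left) and PDGF ligands (right) in each library, with sensitive replicates on the left and resistant replicates on the right of each panel. The VEGF total overlaps between the groups while its split shifts toward VEGFA, and the PDGF total is about 10 FPKM in sensitive and 54.2 to 61.2 FPKM in resistant libraries.

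VEGFA, the main angiogenic ligand and a classical target of hypoxia-inducible factors, had the highest mean of the 10 genes in both groups, although VEGFB was above it in sensitive replicates 1 and 2. It was at 30.1, 32.9 and 51.5 FPKM in sensitive and 55.4, 55.7 and 58.7 FPKM in resistant libraries. Sensitive replicate 3 sat close below the resistant range, apart from the other sensitive libraries. The means were 38.2 ± 11.6 and 56.6 ± 1.84 FPKM, with a log2 fold change of 0.60 (adjusted p = 0.0336 by limma, SE 0.200). Without sensitive replicate 3 the log2 fold change was 0.83 (adjusted p = 1.36e-05 in limma). The call ended when any other library was left out (adjusted p from 0.0833 to 0.105 in limma), with no filter (0.0634) and after scaling to the geometric mean sample (0.0934).

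VEGFB, a ligand of FLT1 that is linked to lipid handling and the heart rather than to vessel sprouting, was the only one of these 6 ligands that fell. Its values were 30.5, 36.9 and 39.3 FPKM in sensitive libraries and 19.7, 19.3 and 24.3 FPKM in resistant ones. Each resistant library was below each sensitive one, with means of 35.6 ± 4.54 and 21.1 ± 2.76 FPKM and a log2 fold change of -0.72 (adjusted p = 0.00356 by limma, SE 0.143). Its resistant mean was 59.4% of its sensitive mean.

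VEGFA and VEGFB were level with each other in sensitive cells and parted in resistant cells. The ratio of VEGFA to VEGFB was 0.986, 0.892 and 1.31 in the sensitive libraries and 2.81, 2.88 and 2.42 in the resistant ones. The groups did not overlap, and the exact two-sided permutation test gave p = 0.1, the smallest that 3 against 3 libraries allow. By contrast the sum of VEGFA, VEGFB and VEGFC overlapped between groups, at 73.8 ± 15.5 and 80.3 ± 4.28 FPKM (exact two-sided permutation test, p = 0.5). These ratios and sums were chosen after the values were seen.

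VEGFC, the ligand of lymphatic growth that acts through FLT4, was close to absent in sensitive cells and low in resistant cells. It was listed at 0.0112, 0 and 0 FPKM in sensitive and at 2.76, 2.71 and 2.20 FPKM in resistant libraries. Low values of a gene were spaced by a fixed step, the worth of 1 read or fragment, and by this step VEGFC had 1, 0 and 0 reads in sensitive and 244, 241 and 196 reads in resistant libraries. The ratio of summed reads was 681 (95% exact interval 122 to 26940, counting error only). The log2 fold change was 1.82 (adjusted p = 4.85e-06 by limma, SE 0.0922) and 4.67 with a pseudocount of 0.1, so its size rests on the pseudocount. Only resistant libraries carried VEGFC past the filter, which fixed its direction.

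**Figure D3:**
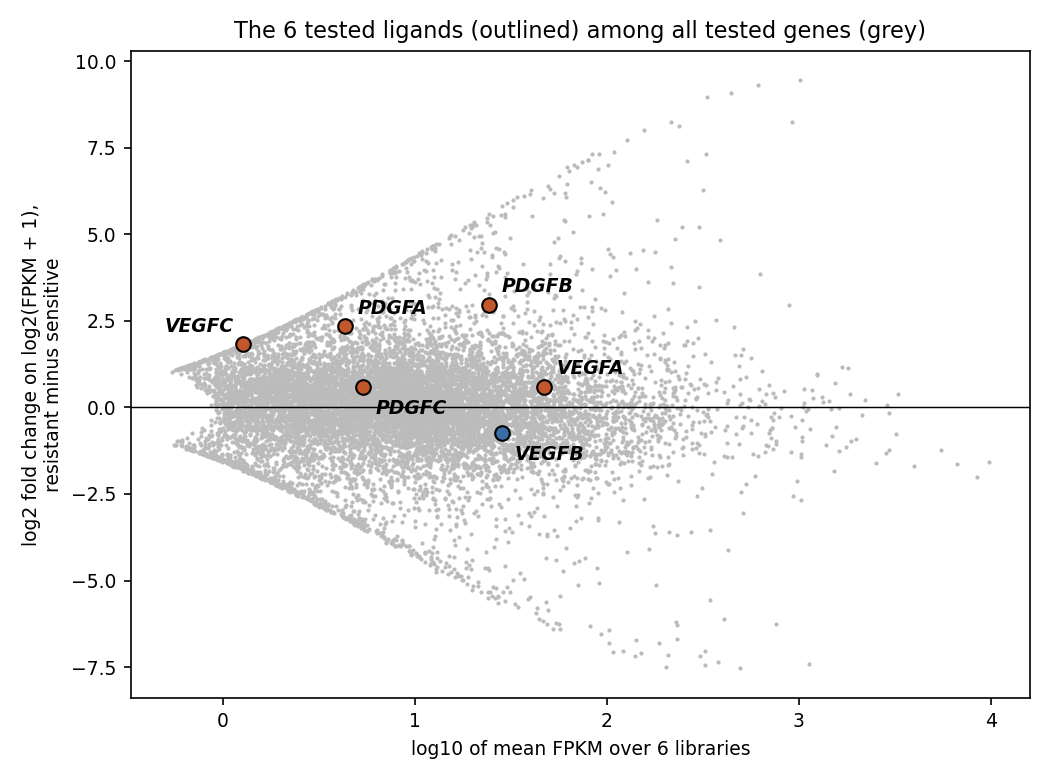
The log2 fold change on log2(FPKM + 1), resistant minus sensitive, against log10 of the mean FPKM over 6 libraries for all 11694 tested genes (grey) and the 6 ligands (outlined, orange if higher and blue if lower). PDGFB and PDGFA lie toward the upper edge of the cloud, VEGFC lies on the edge set by genes near 0 in sensitive cells, and VEGFA, VEGFB and PDGFC lie inside it.

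The receptors of these ligands were low or listed at 0. Of 4 receptor genes, FLT1, KDR and PDGFRA stayed under 1 FPKM in every library, and PDGFRB reached 1 FPKM in 2 sensitive libraries only. FLT1 and KDR were listed at 0 in each of the 6 libraries. Exact zeros in these tables are given as listed, since EGLN2, a gene in wide use among cell types, was also listed at 0 in 2 libraries. PDGFRA was at 0.0371 FPKM in sensitive replicate 2, which amounts to 12 reads, at 0.00314 FPKM or 1 read in resistant replicate 3, and at 0 in the other 4 libraries. The resistant reads of PDGFRA summed to 8.33% of the sensitive reads (95% exact interval 0.195% to 56.3%, counting error only), but the groups overlapped and all 12 sensitive reads came from 1 library. The step of PDGFRA is the largest that fits its few values above 0, so these reads are the fewest possible. The interval rests on that step.

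PDGFRB, the receptor for the B chain, was the only receptor with a measurable level, and it was lower in resistant cells, where its ligand was higher. It was at 1.22, 1.09 and 0.526 FPKM in sensitive and 0.00445, 0.0354 and 0.00442 FPKM in resistant libraries. In reads these values were 277, 250 and 117 against 1, 8 and 1, so the groups were far apart although the sensitive level itself was low. The resistant reads summed to 1.55% of the sensitive reads (95% exact interval 0.741% to 2.87%, counting error only), and this share leaned on 1 library. PDGFRB did not pass the filter and had no test among the 11694 genes. With no filter its log2 fold change was -0.92 (adjusted p = 0.00373 in limma), where 44.6% of 22521 genes passed and 21.7% were lower. Resistant replicate 2, with 8 of the 10 resistant reads, also held the most hepatocyte marker RNA of the resistant libraries. Without it, the mean of the resistant libraries was 0.466% of that of the sensitive ones in reads per library. The log2 fold change without it was -0.93 (adjusted p = 0.00645 in limma), where 2 libraries at 1 FPKM sufficed and only sensitive libraries carried PDGFRB past the filter, which fixed its direction. Without sensitive replicate 3, under the same limit, the log2 fold change was -1.08 (adjusted p = 3.03e-06 in limma).

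**Figure D4:**
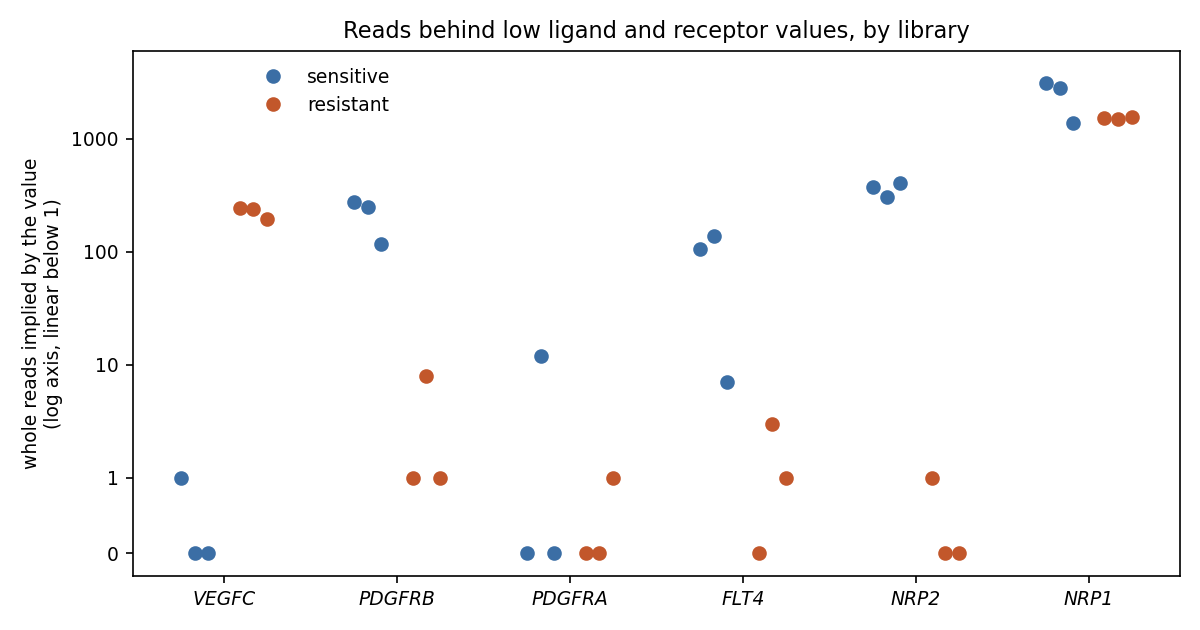
Whole reads or fragments implied by the deposited values for VEGFC and for receptor and co-receptor genes, in each sensitive (blue) and resistant (orange) library, on a log axis that is linear below 1. PDGFRB, FLT4 and NRP2 fall from 105 to 407 reads in the sensitive libraries, except FLT4 at 7 in replicate 3, to 8 or fewer in resistant ones, VEGFC goes the other way, and NRP1 keeps at least 1371 reads in every library.

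The order of levels differed between the states. In sensitive cells VEGFA and VEGFB led with ranges that overlapped, followed by PDGFB and PDGFC, whose ranges also overlapped, then by PDGFRB and PDGFA, overlapping again, and by PDGFRA and VEGFC near 0. In resistant cells the order was VEGFA, PDGFB, VEGFB, PDGFA, PDGFC and VEGFC, and no neighbours among these 6 overlapped. PDGFB thus moved above VEGFB, and PDGFA above PDGFC. The ratio of summed VEGF to summed PDGF ligands went from 7.64 ± 1.88 to 1.37 ± 0.173. All 6 ligands were at 1 FPKM or more in every resistant library, and 4 were in every sensitive one, while the summed level of the 4 receptors was 0.956 ± 0.375 FPKM in sensitive and 0.0158 ± 0.0171 FPKM in resistant cells.

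The remaining ligands of the families moved in both directions. PGF, placental growth factor, another ligand of FLT1, was at 0.647, 0.300 and 0.243 FPKM in sensitive and 5.13, 4.77 and 4.14 FPKM in resistant libraries (log2 fold change 2.03, adjusted p = 2.15e-05 in limma). Only resistant libraries carried PGF past the filter, which fixed its direction. PDGFD, a latent ligand of PDGFRB, was under 1 FPKM everywhere, at 0.644, 0.312 and 0.397 FPKM in sensitive and 0.0466, 0.159 and 0.192 FPKM in resistant libraries. Its groups did not overlap, as was the case for 74.4% of tested genes. With no filter PDGFD passed the test as lower (adjusted p = 0.0311 in limma), as did 21.7% of genes. VEGFD, a ligand of FLT4, had at most 4 reads in a library and 0 in the resistant ones.

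The other receptors and co-receptors differed in both directions, mostly at levels too low for the filter. Of 8 such genes fixed for this comparison 7 were in the files and 2 were tested, with 0 higher and 1 lower. With no filter 1 was higher, RET, and 2 were lower, LRP1 and NRP2, where 22.9% of genes were higher and 21.7% lower. LRP1, an endocytic receptor that associates with PDGFRB, fell from 12.3, 12.0 and 17.9 FPKM to 5.92, 5.97 and 6.63 FPKM (log2 fold change -1.05, adjusted p = 0.00141 in limma). NRP1, the neuropilin that binds VEGFA and assists KDR, was the only one of them well above 1 FPKM besides LRP1, at 12.9, 11.6 and 5.81 FPKM in sensitive and 6.42, 6.21 and 6.42 FPKM in resistant libraries. Sensitive replicate 3 fell below the resistant libraries there, and NRP1 did not pass (log2 fold change -0.53, adjusted p = 0.120 in limma). It did without sensitive replicate 3 (-0.85, adjusted p = 4.24e-05 in limma) and under quantile normalization (-0.64, adjusted p = 0.0317).

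NRP2, the neuropilin that binds VEGFC, was at 0.574, 0.463 and 0.639 FPKM in sensitive libraries and at 0.00155, 0 and 0 FPKM in resistant ones. In reads that was 374, 305 and 407 against 1, 0 and 0, the reverse of VEGFC. FLT4, the receptor of VEGFC, had 105, 139 and 7 reads in sensitive and 0, 3 and 1 reads in resistant libraries, and its highest level was 0.457 FPKM. NRP2 and FLT4 were not tested because of the filter, and with no filter NRP2 passed (adjusted p = 1.74e-04 in limma) and FLT4 did not (0.0945). Sensitive replicate 3 was far below the other sensitive libraries for FLT4, which was not fitted without that library. The kinases KIT and RET, which lenvatinib also inhibits, stayed under 1 FPKM, KIT listed at 0 in all libraries and RET at 0 in sensitive and 0.144, 0.181 and 0.139 FPKM in resistant libraries. In reads RET went from 0 in each sensitive library to 38, 48 and 37, and with no filter it passed the test as higher (adjusted p = 0.00036 in limma).

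Genes that process these ligands changed in opposite directions. Of 10 listed, 6 were tested, 2 rose and 3 fell, where 35.2% of all tested genes were higher and 32.5% lower. FURIN, a proprotein convertase that cleaves the precursors of PDGFA, PDGFB and VEGFC, fell from 272, 298 and 373 FPKM to 17.8, 17.3 and 17.4 FPKM (log2 fold change -4.08, adjusted p = 8.23e-07 in limma). PLAU, the urokinase that can activate PDGFD, rose from 0.664, 0.675 and 0.558 FPKM to 949, 961 and 760.0 FPKM (9.08). CCBE1, a secreted cofactor for the maturation of VEGFC, went from 0.0140, 0 and 0 FPKM to 1.90, 2.07 and 1.71 FPKM (1.52). Only resistant libraries carried PLAU and CCBE1 past the filter. Only sensitive libraries carried PCSK6 past it, at 1.90, 1.97 and 1.37 FPKM against 0.00841, 0.00836 and 0 FPKM. For these 3 genes the filter fixed the direction, so the count is not read as a result about the list. PLAT, the protease that activates PDGFC, was at no more than 0.142 FPKM in any library.

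Of 7 tested genes whose products bind or store the ligands, 3 were higher, 2 lower and 2 not past the test. Over all tested genes 35.2% were higher and 32.5% lower. The count that rose includes THBS1, whose direction the filter fixed, so these counts are not read as a result about the list. THBS1, thrombospondin 1, an antagonist of angiogenesis, rose from 0.547, 0.439 and 0.285 FPKM to 45.7, 44.8 and 38.2 FPKM (log2 fold change 4.95), though only resistant libraries carried it past the filter. GPC1, a heparan sulphate proteoglycan, rose by 1.72 on the log2 scale. A2M, a plasma protease inhibitor that binds PDGF, fell from 645, 647 and 539 FPKM to 1.87, 6.76 and 2.31 FPKM (-7.18), and it is also a product of hepatocytes.

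Downstream of the receptors, 12 of 22 tested adaptors and effectors rose, 4 fell and 6 did not pass, in libraries where 67.7% of all tested genes passed, 35.2% higher and 32.5% lower. The median log2 fold change was 0.64, against 0.08 over all tested genes. This median and the count that rose include FYN, whose direction the filter fixed, so neither is read as a result about the list. SHC1, an adaptor shared by many receptor kinases, rose from 14.3, 14.9 and 19.0 FPKM to 282, 271 and 252 FPKM (3.99). The SRC-family kinase FYN went from 0.0845, 0.225 and 0.0324 FPKM to 15.2, 17.2 and 15.2 FPKM (3.92, carried past the filter by resistant libraries only), and the focal adhesion protein PXN rose by 2.29. These adaptors also serve other receptors, so the list is not particular to VEGF and PDGF signalling. Of 5 tested phosphatases and ubiquitin ligases that switch such receptors off, 4 rose and 1, PTPRJ, did not pass. A count of 1 lower was obtained under quantile normalization, after scaling to the geometric mean sample, without sensitive replicate 3 and without resistant replicate 3. CBL, a ubiquitin ligase of activated receptors, rose from 8.95, 8.43 and 6.33 FPKM to 22.1, 25.3 and 25.0 FPKM (1.50), PTPN12 by 1.46 and PTPN2 by 1.30.

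**Figure D5:**
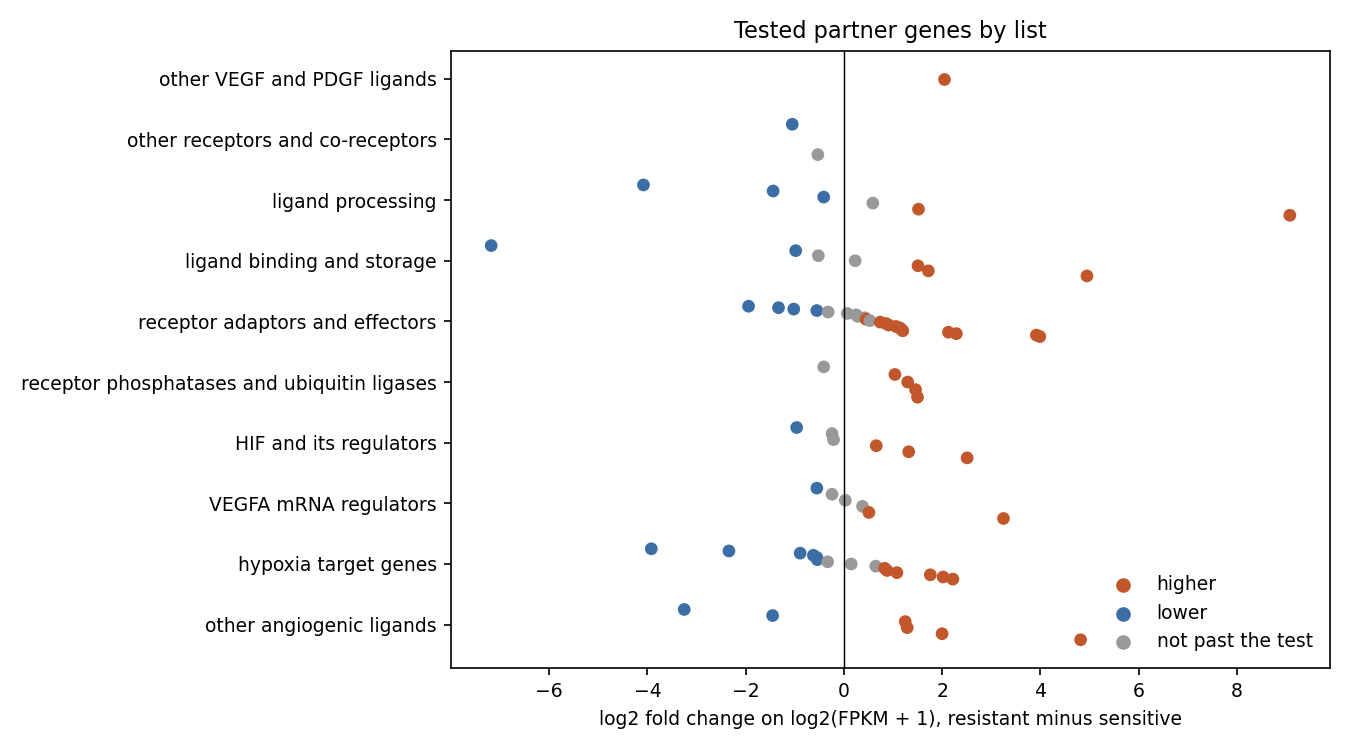
The log2 fold change on log2(FPKM + 1), resistant minus sensitive, of each tested partner gene by list, coloured by its call in limma, where vertical position within a list has no meaning. The lists hold genes on both sides of 0, except those with only 1 or 2 tested genes. Among the receptor phosphatases and ubiquitin ligases, PTPRJ lies below 0 at -0.41, and no gene was called lower in this fit.

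The regulators of VEGFA and its fellow hypoxia targets did not share a direction. HIF1A, the oxygen-labile subunit of the hypoxia-inducible factor, rose from 28.7, 19.6 and 8.52 FPKM to 92.4, 106 and 107 FPKM (log2 fold change 2.51), and its paralogue EPAS1 rose by 1.32. Their partner ARNT fell from 15.0, 16.7 and 16.4 FPKM to 7.72, 7.63 and 7.88 FPKM (-0.96). Of 15 tested hypoxia targets 6 rose, 6 fell and 3 did not pass, where 35.2% of all tested genes were higher and 32.5% lower. The autophagy receptor BNIP3L rose by 2.22, whereas the carbonic anhydrase CA9 was at 15.2, 13.6 and 13.7 FPKM in sensitive libraries and listed at 0 in each resistant one. Only sensitive libraries carried CA9 past the filter, which fixed its direction, so the count of targets is not read as a result about the list. The glycolytic enzyme PGK1 fell by 2.34.

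Of 6 proteins that act on VEGFA transcription or mRNA, 2 rose, 1 fell and 3 did not pass. ZFP36L1, which promotes decay of AU-rich mRNAs that include VEGFA, rose from 8.90, 8.96 and 10.7 FPKM to 99.0, 99.5 and 96.9 FPKM (log2 fold change 3.25). SP1, which binds GC boxes such as those shown above, rose by 0.51, and HNRNPL fell by 0.55, a call that ended without resistant replicate 3 (adjusted p = 0.0532 in limma). The count that fell was 2 without sensitive replicate 3 and with no filter. Among other angiogenic ligands 4 of 6 tested rose and 2 fell. TYMP, thymidine phosphorylase, rose from 2.72, 2.31 and 3.03 FPKM to 13.9, 13.5 and 13.7 FPKM (2.00), FGF2 rose by 4.82, carried past the filter by resistant libraries only, and ANGPTL4 fell by 3.25. Over all 76 tested partner genes 37 rose and 20 fell, which is 75.0% called, near the background of 67.7%. Of all tested genes 35.2% were higher and 32.5% lower. The counts of the partner genes and of the other angiogenic ligands include genes whose direction the filter fixed. They are therefore not read as a result about these lists.

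Markers of cells that normally carry these receptors gave mixed values. Of 8 endothelial markers in the files, 6 stayed under 1 FPKM in all libraries, CDH5 at no more than 0.132 FPKM, and ERG was listed at 0 throughout. ESAM, an adhesion molecule, was the exception, at 1.64, 1.51 and 0.818 FPKM in sensitive and 200.1, 185 and 166 FPKM in resistant libraries, and ROBO4 reached 1.78, 1.25 and 0.856 FPKM in resistant ones. The summed level of the list was 1.01 to 1.83 FPKM in sensitive and 167 to 202 FPKM in resistant libraries, nearly all of it ESAM. Under 1 FPKM, VWF went from 0, 1 and 1 reads in sensitive to 82, 95 and 59 reads in resistant libraries. With no filter it passed as higher (adjusted p = 0.00104 in limma), as did 22.9% of genes. PECAM1 went the other way, from 54, 33 and 11 reads to 6, 1 and 1 reads, and did not pass (adjusted p = 0.0654 in limma). Of 9 fibroblast and pericyte markers, 8 stayed under 1 FPKM, RGS5 at no more than 0.684 FPKM, and the exception was ACTA2, listed at 0 in sensitive and at 2.77, 3.22 and 2.30 FPKM in resistant libraries. Only resistant libraries carried ACTA2 past the filter. Under 1 FPKM, COL3A1 went the other way, from 86, 60 and 57 reads to 0, 0 and 4 reads. With no filter COL3A1 passed as lower (adjusted p = 8.8e-04 in limma), as did 21.7% of genes, and CSPG4 passed as higher (0.0434). PTPRC, the pan-leukocyte marker, was listed at 0 in every library, while LYZ at 238 to 249 FPKM and CD68 at 11.7 to 18.2 FPKM made up nearly all of the leukocyte list in sensitive cells and fell in resistant cells, with log2 fold changes of -7.03 and -1.91. The sensitive libraries by themselves carried LYZ past the filter. The part of these markers in the ligand and receptor values was not tested.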

How the data were processed

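RNA-seq values of 6 libraries were used, 3 sensitive and 3 resistant, grouped by sample title. The deposited tables, 1 for each library, list gene symbols with a number that was taken from its range and spacing to be FPKM, which the authors scaled by transcript length and library size (it cannot be told from RPKM). The submitters' processing notes name cutadapt and HISAT2. For the counting program, genome build, annotation and strand setting, the answer is not given in the sources used here, so reads of antisense partners cannot be told apart. Depth was read from the spacing of low values. For all of 7314 genes with a mean under 1 FPKM and at least 3 values above 0, the values were whole numbers of a step to within 0.02.

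The test was limma-trend (limma 3.58.1 under R 4.3.3) on log2(FPKM + 1) with a pseudocount of 1 and no block, which left 4 residual and 2.75 prior degrees of freedom. The filter was 1 FPKM in 3 libraries, or in as many as the smaller group held when libraries were left out. Exact permutation tests were two-sided over the 6 libraries. Read ratios carry exact Clopper-Pearson intervals. The fit was tested on simulated data. Python 3.11.15 was used with scipy 1.17.1, numpy 2.4.6, pandas 2.3.3 and, for plots, matplotlib 3.10.9. The genes, lists and tests were chosen with earlier results of these data known.

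Named genes were the 10 members, the other VEGF and PDGF ligands, FLT4 and the neuropilins, up to 3 called genes per partner list by size of change whose groups did not overlap, and the 2 highest markers per marker list. KIT, RET, PLAT, PCSK6, PTPRJ, EGLN2, ALB, TTR, CDH5, ERG, VWF, PECAM1, COL3A1, CSPG4 and PTPRC were added after their values were seen. Alternatives were another pseudocount (0.1), the filter dropped or set at a mean of 5 FPKM, quantile normalization, limma without the trend, a replicate block, scaling to the geometric mean sample, and libraries left out.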

Additional observations from a re-analysis of the deposited data

How the results depend on the processing

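The directions of all tested named genes, apart from those added after their values were seen, held under every alternative that could be fitted. VEGFB, VEGFC, PDGFA, PDGFB and PDGFC kept their calls in each. With a mean of at least 5 FPKM the count of called genes was 4973 against 7920, from 7396 genes tested, and 3 members were higher, since VEGFC and PDGFA were not tested. The count of members lower was 2 in place of 1 with no filter, through PDGFRB, and between 1 and 2 when 1 library was left out, where only sensitive libraries carried PDGFRB past the filter. It was 2 with sensitive replicate 3 and resistant replicate 2 both left out, an alternative chosen after seeing the data, where 9102 genes were called. VEGFA kept its call under 7 of 14 alternatives, with a log2 fold change from 0.45 to 0.84 and adjusted p from 1.36e-05 to 0.105 in limma. Leaving out 1 library gave 6877 to 9716 called genes. The number of receptors that reached 1 FPKM was 1 under both scalings and without any library.

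Same-numbered libraries did not deviate together from their group means (correlations across genes of -0.422, 0.072 and -0.228). Sensitive replicate 3 and resistant replicate 1 had the highest such correlation, at 0.346. With 3 libraries per group these deviations are tied to each other, so they cannot exclude a weaker shared batch. With the replicate block 7193 genes were called, the calls of the 6 ligands held, and VEGFA had an adjusted p of 0.0341 in limma. By the steps in their values, PDGFRA, VEGFD and VEGFC had no more than 12 reads in any sensitive library. This limits what can be said of these genes in sensitive cells.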
